A study of Mus musculus with 26 samples.

Results

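The mouse genes Saa3, Hp, Lcn2, Wfdc17, Slpi, S100a8 and S100a9 encode secreted proteins of the acute-phase response and of antimicrobial defence, and their read counts were followed in lung macrophages after lipopolysaccharide (LPS). They are 7 of the 55487 genes in the count table, each found by the symbol that the GENCODE M21 annotation of GRCm38 gives its Ensembl ID. They were selected on their measured levels in these libraries, so those levels and the differences between groups are given as a description, with no p-value for any of the 7. LPS, a component of the outer membrane of Gram-negative bacteria, was given by the route the study abbreviates as IT. RNA came from resident alveolar macrophages (AM), the phagocytes of the air spaces, and from bone marrow-derived macrophages (BM), recruited to the lung from the blood.

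The 26 libraries form 7 groups: AM without LPS, called day 0 (n = 3), AM at day 1 (n = 4), day 3 (n = 3) and day 7 (n = 4) after LPS, and BM at day 1 (n = 5), day 3 (n = 4) and day 7 (n = 3). There is no BM group without LPS. The labels state neither strain, genotype, age, sex nor how the cells were isolated, except that the names of the day 0 libraries hold the word Young, which no other name does. Nothing says that replicates are separate animals, so the spread between them may be technical in part. A library is written as its group and replicate number, as in BM_day3.1.

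Total counts ran from 9176202 to 80816742 a library, and levels are given as CPM, the count divided by the library's total and scaled by 1000000. Summed CPM of 17 alveolar macrophage markers was 25879 to 43996 in the AM libraries and 1721 to 5522 in the BM libraries of days 1 and 3, but 19266 and 20438 in BM_day7.1 and BM_day7.2, against 4497 in BM_day7.3. BM_day3.1 stood apart: its summed fibroblast and endothelial markers were at 29309 CPM, of which the collagen gene Col1a1 gave 15944, against sums of 91.1 to 388 CPM in the rest of its group, and the sum of 27 neutrophil markers (none of them one of the 7 genes) was 2379 CPM against 405 to 564. Genes at 1 CPM or more numbered 7419 in it and 10431 to 11765 in the rest of BM day 3, and 9022 in BM_day1.3 against 13200 to 13985 in the rest of BM day 1. IDs with no gene name held 2.69 to 5.74% of the counts in BM day 1 and at most 0.140% in any other library. Y-linked RNA summed to 148 to 239 CPM in all AM libraries of days 0, 1 and 3 and to at most 4.02 CPM in the day 7 libraries of both cell types, while BM day 1 libraries ranged between 7.20 and 41.3 CPM, and BM day 3 held both kinds of level. Sex as read from RNA therefore cannot be told apart from day between AM day 7 and earlier AM days, from cell type at day 1, or from either between BM day 7 and AM day 0. AM_day0.1 held both Y-linked RNA (148 CPM) and Xist, the RNA of the inactive X chromosome (146 CPM), and the other two AM day 0 libraries held 0 CPM of Xist. The AM day 0 and BM day 1 libraries each carry a name prefix that no other group has. The remaining groups share a prefix. Whatever the prefix stands for cannot be told apart from LPS in any comparison with AM day 0. Nor can it be told apart from day or cell type in any comparison with BM day 1. AM day 0 libraries also had the highest totals, 35780951 to 80816742 counts against 9176202 to 27513205 in all other libraries. In bulk RNA, a change in the share of a cell type and a change in RNA per cell cannot be told apart.

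The acute-phase response is the change in secreted plasma proteins that follows infection or injury. Interleukin-6 and interleukin-1 drive it in the liver through STAT3, C/EBP and NF-kB transcription factors, and macrophages make part of the same set locally. Saa3 is a serum amyloid A lipoprotein component, haptoglobin (Hp) binds free haemoglobin for uptake through the receptor Cd163, and lipocalin 2 (Lcn2) withholds iron by binding bacterial siderophores. Slpi and Wfdc17 are small proteins with a whey acidic protein (WAP) domain, the first an inhibitor of neutrophil elastase, and S100a8 and S100a9 together form calprotectin, which binds zinc and manganese, is abundant in neutrophils and signals through Tlr4.

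The promoters are shown because most of them share 1 motif although the genes differ in time course. RefSeq's table for GRCm38.p6 has an entry for 6 of the 7 genes, all but Hp. In the 250 bases before each start, the C/EBP motif TTGCNNAA on either strand was found in 4 of the 6, those of Saa3, Lcn2, Slpi and S100a9, and in 9.56% of the table's 32851 promoters. The NF-kB form GGNNTTTCC was found in the Saa3 promoter alone (4.93% of all promoters), the STAT form TTCNNNGAA in none (7.02%) and TATAAA in that of S100a8 alone (12.4%), 30 bases before its start. No motif overlapped another in these promoters. The lines that follow give, from 5′ to 3′, the stretch of 190 bases that ends 60 bases before the RefSeq start. Capitals mark the C/EBP letters and, as the first capitals of the Saa3 line, the NF-kB letters. The C/EBP letters begin 99 bases before the start in Saa3 (chr7:46715737-46715926, minus strand), 216 in Lcn2 (chr2:32387800-32387989, minus strand), 241 in Slpi (chr2:164356568-164356757, minus strand) and 236 in S100a9 (chr3:90695782-90695971, minus strand).
Saa3: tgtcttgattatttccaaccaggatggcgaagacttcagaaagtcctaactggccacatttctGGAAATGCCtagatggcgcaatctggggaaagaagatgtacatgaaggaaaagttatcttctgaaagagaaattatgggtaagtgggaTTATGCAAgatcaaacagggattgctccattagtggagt
Lcn2: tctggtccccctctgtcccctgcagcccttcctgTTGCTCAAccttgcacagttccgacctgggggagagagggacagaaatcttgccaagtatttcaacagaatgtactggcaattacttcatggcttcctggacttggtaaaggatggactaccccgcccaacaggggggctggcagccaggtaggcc
Slpi: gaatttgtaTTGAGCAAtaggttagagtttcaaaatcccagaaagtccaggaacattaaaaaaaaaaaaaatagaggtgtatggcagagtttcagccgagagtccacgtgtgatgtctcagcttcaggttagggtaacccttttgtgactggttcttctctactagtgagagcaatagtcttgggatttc
S100a9: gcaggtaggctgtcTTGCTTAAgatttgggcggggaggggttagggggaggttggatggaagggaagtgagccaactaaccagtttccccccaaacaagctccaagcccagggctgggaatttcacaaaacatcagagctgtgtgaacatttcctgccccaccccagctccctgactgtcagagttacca
A match describes the letters of this window only, and whether a factor binds there was not tested.

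Saa3 had the widest range of the 7 genes and was the most abundant of them per kilobase of exon at day 3. Its gene (ENSMUSG00000040026) lies on chromosome 7 from 46711998 to 46715700. In AM it stood at 0.254, 1.84 and 3.13 CPM without LPS, at 293, 399, 350.4 and 113 CPM at day 1, at 1566, 5973 and 2487 CPM at day 3 and at 8.03, 4.60, 2.83 and 5.13 CPM at day 7. The day 7 libraries thus overlapped those without LPS, and each of them was below every day 1 and day 3 library. In BM it stood at 376, 142, 144, 1211 and 363 CPM at day 1, at 5331, 5063, 3297 and 6583 CPM at day 3 and at 157, 157 and 779 CPM at day 7. The BM day 7 libraries all lay above every AM day 7 library, and BM_day7.3, with the fewest alveolar markers of its group, was the highest of them. The BM day 7 mean was 364 CPM with it and 157 ± 0.543 (SD, n = 2) without it. The fitted log2 difference of BM from AM was 0.58 ± 0.68 (SE) at day 1, 0.53 ± 0.77 at day 3 and 6.17 ± 0.91 at day 7, with overlapping groups at days 1 and 3. The day 1 difference was −0.20 without BM_day1.4, and the BM day 1 mean was then 256 ± 131 CPM (SD, n = 4) in place of 447. In order of group means, neighbours from BM day 3 down to AM day 0 did not overlap at 2 steps: between AM day 3 and BM day 1, and between AM day 1 and AM day 7.

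Hp had no overlap between any AM days. Its gene (ENSMUSG00000031722) lies on chromosome 8 from 109575128 to 109579172. AM libraries held 2.58, 2.78 and 1.40 CPM without LPS, 409, 479.7, 387 and 301 CPM at day 1, 1166, 1376 and 1156 CPM at day 3 and 113, 235, 120.4 and 153 CPM at day 7. The lowest day 7 library was 40.7 times the highest library without LPS. BM libraries held 232, 211, 284, 292 and 127 CPM at day 1, 2186, 968, 791 and 1480.2 CPM at day 3 and 233, 216 and 403 CPM at day 7. Both cell types were thus highest at day 3, at 1233 ± 124 CPM (SD, n = 3) in AM and 1356 ± 626 (n = 4) in BM, a fitted log2 difference of 0.06 ± 0.32. Without BM_day3.1 the BM mean was 1080 ± 358 CPM (n = 3).

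Lcn2 had its highest AM mean a day after LPS, while Saa3 and Hp had theirs at day 3. Its gene (ENSMUSG00000026822) lies on chromosome 2 from 32384633 to 32388252, and the printed stretch before its RefSeq start lies wholly inside that span. AM libraries held 0.254, 1.08 and 0.587 CPM without LPS, 561, 653, 1898 and 898 CPM at day 1, 377, 542 and 960.0 CPM at day 3 and 16.5, 22.6, 10.1 and 16.2 CPM at day 7. Days 1 and 3 overlapped, with a fitted log2 difference of day 3 from day 1 of −0.67 ± 0.64. The day 1 mean of 1002 CPM includes AM_day1.3 (1898 CPM). Day 7 lay between those days and the libraries without LPS, apart from both. BM libraries held 158, 217, 467, 255 and 109.9 CPM at day 1, 1968, 423, 128 and 1021 CPM at day 3 and 16.1, 13.3 and 19.0 CPM at day 7. All BM day 1 libraries were below all AM day 1 libraries, by a fitted log2 difference of −2.09 ± 0.56, whereas at day 7 the means were 16.3 ± 5.11 CPM (SD, n = 4) in AM and 16.1 ± 2.85 (n = 3) in BM. The BM day 3 mean of 885 ± 812 CPM (n = 4) rested on BM_day3.1, without which it was 524 ± 455 (n = 3).

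**Figure D1:**
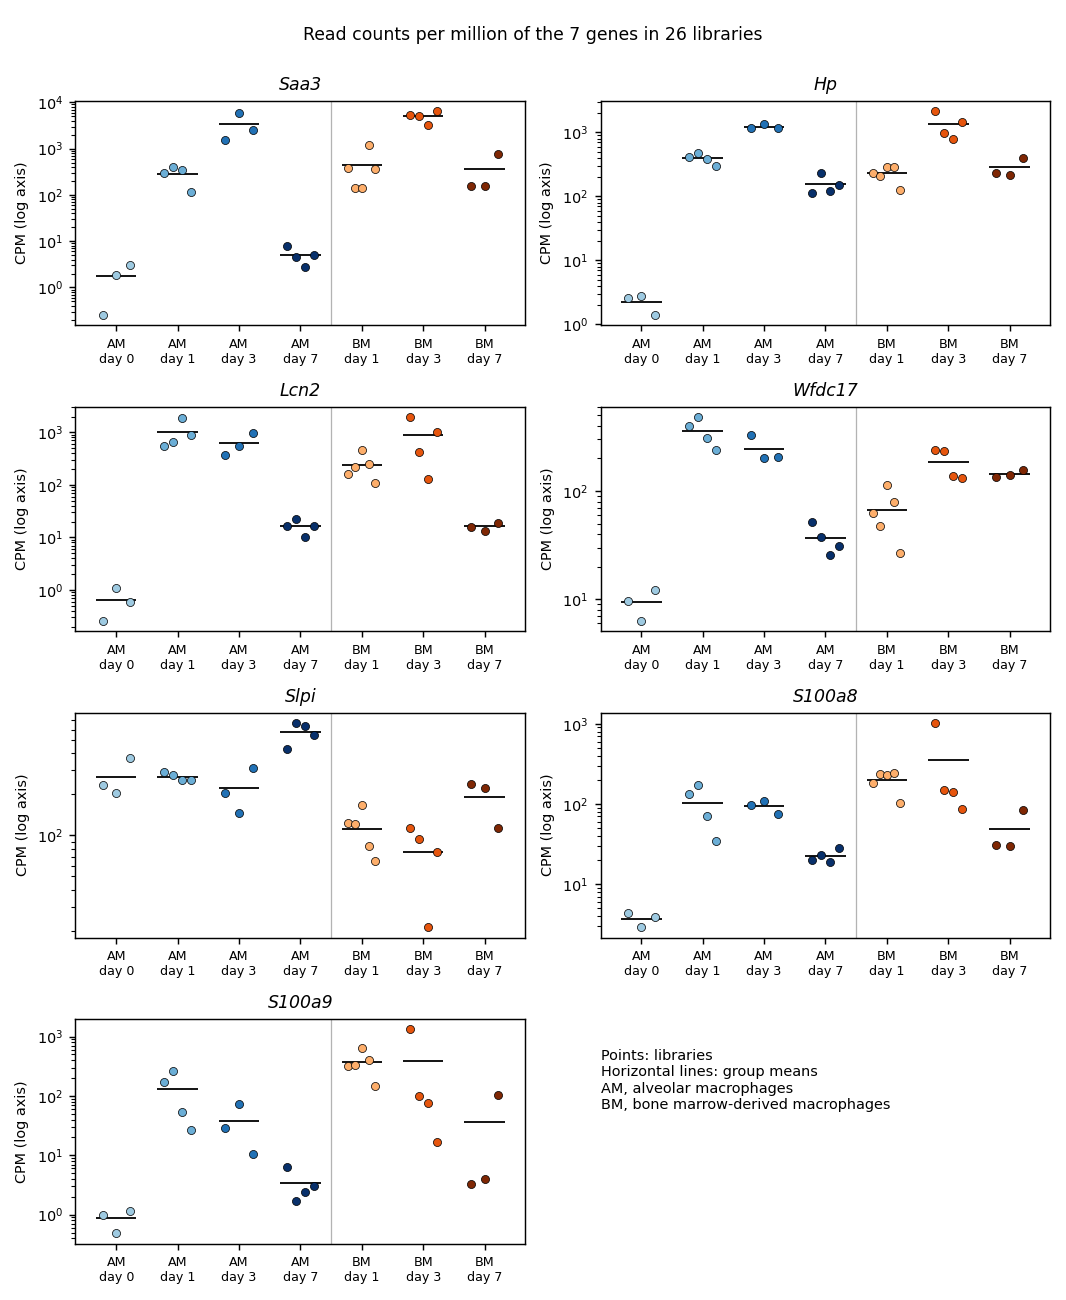
CPM of the 7 genes on log axes in each of the 26 libraries (points), by cell type and day, with group means as lines. Saa3 and Hp are highest at day 3 in both cell types, Lcn2 and Wfdc17 have their highest AM mean at day 1, Slpi has its highest mean in AM day 7 (571 CPM), and BM_day3.1 lies far above its group for S100a8 (1021 CPM) and S100a9 (1331 CPM).

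The WAP-domain genes took separate courses. Wfdc17 (ENSMUSG00000069792, chromosome 11, 83703991 to 83706268), known from activated macrophages and microglia, stood in AM at 9.61, 6.26 and 12.1 CPM without LPS, at 399.5, 485, 312 and 239.7 CPM at day 1, at 329.7, 200.5 and 206 CPM at day 3 and at 51.9, 37.8, 25.9 and 31.3 CPM at day 7. In BM it stood at 62.5, 47.5, 114, 79.9 and 26.7 CPM at day 1, at 241, 232, 139 and 131 CPM at day 3 and at 134, 140.0 and 157 CPM at day 7. AM was above BM in every library at day 1 (log2 difference of BM from AM −2.52 ± 0.32), the cell types overlapped at day 3 (−0.48 ± 0.35), and BM was above AM in every library at day 7 (1.98 ± 0.35). In BM, day 7 overlapped day 3 and lay above all of day 1.

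Slpi was the 1 gene of the 7 that was abundant without LPS. Its gene (ENSMUSG00000017002) lies on chromosome 2 from 164354070 to 164389095, and the RefSeq start used for its promoter lies inside that span. AM libraries held 233, 205 and 370.3 CPM without LPS, 293, 279, 255 and 256 CPM at day 1, 205, 146 and 315 CPM at day 3 and 431, 669, 632 and 549 CPM at day 7. The first 3 groups overlapped one another, and every day 7 library was above all of them. BM libraries held 124, 121, 166, 83.5 and 65.1 CPM at day 1, 113, 94.3, 21.1 and 75.7 CPM at day 3 and 240.2, 224 and 114 CPM at day 7. On each of the 3 days all AM libraries were above all BM libraries, with log2 differences of BM from AM of −1.34 ± 0.34, −1.62 ± 0.39 and −1.56 ± 0.41. In BM day 7 the library with the fewest alveolar markers, BM_day7.3, had the least Slpi, at 114 CPM.

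The calprotectin genes ran together across libraries and differed widely within several groups. S100a8 (ENSMUSG00000056054) and S100a9 (ENSMUSG00000056071) lie on chromosome 3, from 90668978 to 90670035 and from 90692632 to 90695721, on opposite strands and without overlap. The RefSeq start used for the S100a8 promoter lies inside the span of S100a8. S100a8 stood in AM at 4.42, 2.91 and 3.88 CPM without LPS, at 132, 175, 70.5 and 34.5 CPM at day 1, at 96.4, 110.3 and 75.7 CPM at day 3 and at 20.1, 23.1, 18.9 and 28.3 CPM at day 7. In BM it stood at 184, 238, 227, 246 and 104 CPM at day 1, at 1021, 148, 143 and 86.7 CPM at day 3 and at 30.7, 30.3 and 83.6 CPM at day 7. Its day 7 libraries in both cell types lay above all libraries without LPS, and those of BM above those of AM. Without BM_day3.1, the BM day 3 mean of 349.7 CPM was 126 ± 33.9 (SD, n = 3), below the BM day 1 mean of 200.01 ± 58.6 (n = 5).

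S100a9 was nearly absent from AM without LPS and again low at day 7. AM libraries held 1.00, 0.483 and 1.17 CPM without LPS, 172, 266, 53.5 and 26.6 CPM at day 1, 28.7, 74.5 and 10.7 CPM at day 3 and 6.47, 1.72, 2.43 and 3.01 CPM at day 7. BM libraries held 321, 330.4, 641, 396 and 146 CPM at day 1, 1331, 100.4, 76.7 and 16.6 CPM at day 3 and 3.24, 4.04 and 104 CPM at day 7. In BM, 1 library set each later mean: that of day 3 went from 381 to 64.6 CPM without BM_day3.1, and that of day 7 from 37.1 to 3.64 CPM without BM_day7.3. Within the shared prefix, library numbers 7 to 24 and 26 to 34, ranges chosen after the values were seen, divide several groups. AM_day1.1 and AM_day1.2, with numbers in the higher range, held 132 and 175 CPM of S100a8 against 70.5 and 34.5 in AM_day1.3 and AM_day1.4. AM day 3 ran the same way, with 96.4 and 110.3 CPM against 75.7. BM ran the opposite way: at day 3 the lower range held 148 and 1021 CPM against 143 and 86.7 in the higher. BM_day7.3, the only BM day 7 library in the lower range, had the most S100a8 of its group (83.6 CPM). What the number stands for is not stated, and its part in these levels was not tested.

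The count of S100a9 per count of S100a8 differed between days and between libraries. This ratio, which is not corrected for gene length and is compared only between libraries, ran from 1.39 up to 2.82 among the BM day 1 libraries, with summed neutrophil markers of 839 to 2304 CPM. The ratio was 1.3035 in BM_day3.1 (neutrophil sum 2379 CPM) and 0.192 to 0.679 in the rest of BM day 3 (405 to 564 CPM). Among BM day 7 libraries the ratio took values of 0.106 and 0.133 in BM_day7.1 and BM_day7.2 (319 and 327 CPM) and 1.24 in BM_day7.3 (504 CPM). AM libraries ran from 0.0747 to 0.322 at days 0 and 7, from 0.141 to 0.676 at day 3 and from 0.759 to 1.52 at day 1, with neutrophil sums of 243 to 495 CPM on all 4 days. Trem1 alone stood at 270 to 385 CPM in AM without LPS and at 68.6 to 106 CPM in AM day 1. Among markers more restricted to neutrophils, Ly6g was at 0 in all AM libraries of days 0, 3 and 7 and at most 1.26 CPM at day 1. It had counts in each BM group. Camp had counts in each BM group and in AM day 3, and none in the other AM groups. Elane and Ctsg were at 0 in all 26 libraries and so tell no libraries apart. Cxcr2, Csf3r, Mmp8 and Ngp, also set as defining markers of neutrophils, are not described here. Retnlg, a neutrophil-secreted resistin-like protein, was at 20.9 to 99.1 CPM in BM day 1, at 221 CPM in BM_day3.1 and at 0 to 8.06 CPM in the rest of BM day 3, and at 0 to 28.6 CPM in AM day 1. The part of other cells in the calprotectin levels was not tested.

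**Figure D2:**
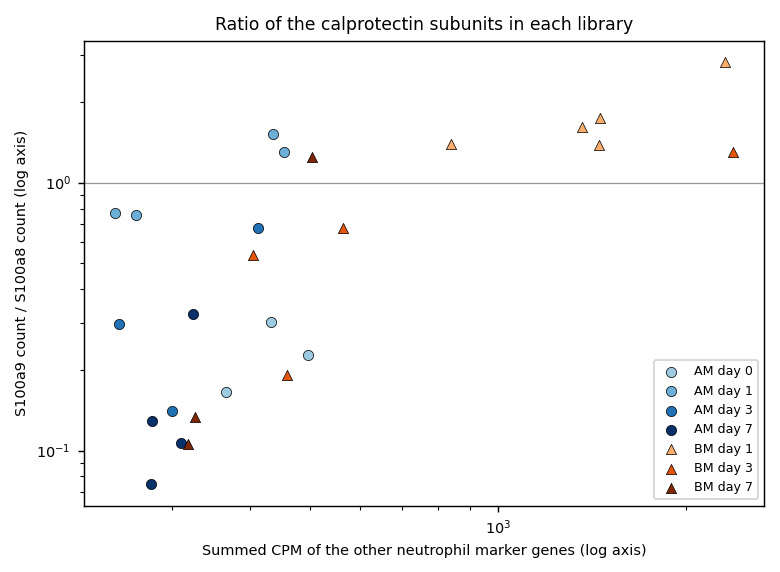
S100a9 counts divided by S100a8 counts (vertical, log axis) against the summed CPM of 27 other neutrophil markers (horizontal, log axis), 1 point a library. All 5 BM day 1 libraries and BM_day3.1 lie at the upper right, with ratios of 1.3035 to 2.82 and sums of 839 to 2379 CPM, while AM day 1 reaches ratios of 0.759 to 1.52 at sums of 243 to 453 CPM.

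How much was left at day 7 differed by gene and by cell type. In AM, Hp was at 12.6% of its day 3 mean and 69.0 times the mean without LPS, Lcn2 at 1.63% of its highest mean and 25.5 times, S100a8 at 21.9% and 6.04 times, Wfdc17 at 10.2% and 3.93 times, and S100a9 at 2.63% and 3.85 times. Saa3 in AM was at 0.154% of its day 3 mean and overlapped the libraries without LPS, and Slpi was at its highest, 2.12 times the mean without LPS. In BM, Wfdc17 was still at 77.4% of its day 3 mean, Hp at 20.9%, Saa3 at 7.19% and Lcn2 at 1.82%, or 3.08% without BM_day3.1. S100a8 in BM was at 13.8% of its day 3 mean, or 38.3% without BM_day3.1, and S100a9 at 9.72%, or 57.4% without it. Without BM_day3.1, day 1 was the highest BM day for both, at 200.01 CPM of S100a8 and 367 CPM of S100a9. The day 3 means were then 126 and 64.6 CPM, so 38.3% and 57.4% are not shares of the highest BM mean. The day 7 mean of S100a9 behind these shares also includes BM_day7.3 (104 CPM). For lack of a BM group without LPS, the BM day 7 libraries can be set only against AM day 0: Saa3 was 209 times that mean, Hp 126, S100a9 41.8, Lcn2 25.2, Wfdc17 15.4 and S100a8 12.9 times, while Slpi was at 0.713 times and overlapped it. Without BM_day7.3, the BM day 7 means of Saa3, S100a9 and S100a8 were 157, 3.64 and 30.5 CPM in place of 364, 37.1 and 48.2 CPM.

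**Figure D3:**
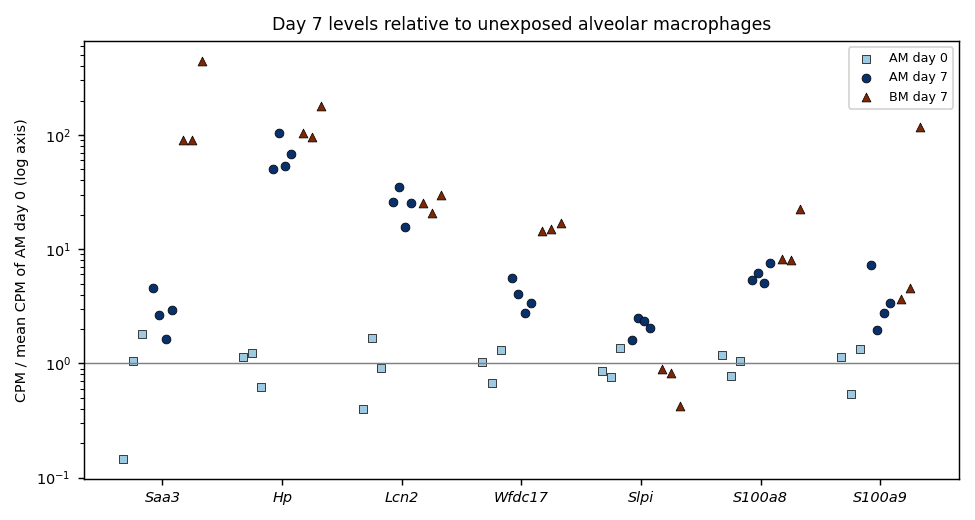
CPM at day 7 in AM (circles) and BM (triangles), and in AM without LPS (squares), each divided by the mean of AM without LPS, on a log axis, 1 point a library. The genes whose day 7 libraries overlap those without LPS are Slpi in BM and Saa3 in AM. For S100a9 in AM the lowest day 7 library (1.72 CPM) is close to the highest library without LPS (1.17 CPM). The cell types are farthest apart for Saa3.

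The calls of an edgeR quasi-likelihood fit to all 26 libraries (adjusted p under 0.05, Benjamini-Hochberg over 17143 genes) are given only as counts. All 7 genes passed its filter on low counts. Against AM without LPS, the fit called 6 of the 7 higher at AM day 1, where it called 6.28% of all genes, 5 higher at AM day 3 (2.51% of all genes) and 3 higher at AM day 7 (0.677%). The last count was 1 with Y-linked RNA as a covariate and 6 with only the compared groups fitted. BM day 7 against the same group had 5 higher (2.16%). These 4 comparisons share their control libraries. Between AM days, 2 were higher at day 3 than at day 1 (0.834% of all genes called) and 4 lower at day 7 than at day 3 (1.59%). The first count was 0 without AM_day3.2, and the second was 7 by DESeq2 and with only those groups fitted. Between BM days, 4 were higher at day 3 than at day 1 (25.9%), and at day 7 against day 3 there were 4 lower and 1 higher (3.98%). Of these 5, 0 were called with only those groups fitted and 2 without BM_day7.1 or without BM_day7.2. For BM against AM, 4 were lower at day 1 (29.0%), 1 was lower at day 3 (3.98%), and 2 were higher and 1 lower at day 7 (1.77%). The day 3 count was 0 with only those groups fitted, without AM_day3.1 and without AM_day3.3, and 3 by DESeq2. Because these contrasts chose the genes, nothing is read from the counts. The median log2 difference of the 7 genes from AM day 0 was 7.295 at AM day 1, 5.47 at day 3 and 2.01 at day 7, beside −0.20, −0.07 and −0.04 over all genes tested.

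**Figure D4:**
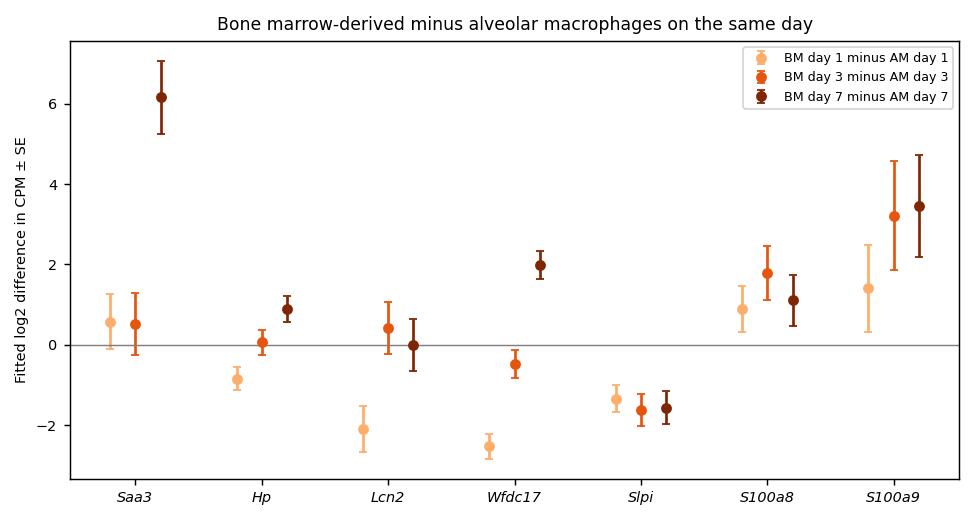
Fitted log2 difference of BM from AM on the same day for the 7 genes, with SE as bars; 0 means equal levels. Slpi lies below 0 on all 3 days (−1.34, −1.62 and −1.56), Wfdc17 goes from −2.52 at day 1 to 1.98 at day 7, and Saa3 stands at 6.17 at day 7 after 0.58 and 0.53.

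Across the 26 libraries the induced genes ran together and Slpi ran against most of them. The Pearson correlation of log2(CPM + 1) was 0.926 for S100a8 with S100a9, and still 0.903 after group means were removed. It was 0.837 for Saa3 with Hp, 0.803 for Saa3 with Lcn2 and 0.844 for Hp with Wfdc17, and 0.314, 0.149 and 0.431 after removal of group means. Hp with Lcn2 went from 0.837 to 0.651 and Hp with S100a8 from 0.813 to 0.663, so these pairs also ran together within groups. Slpi had −0.669 with Saa3 and −0.203 with Wfdc17. After removal of group means Slpi had 0.605 with Lcn2. In BM day 3 both genes were lowest in BM_day3.3 (21.1 CPM of Slpi and 128 of Lcn2) and highest in BM_day3.1 (113 and 1968 CPM). The value of 0.605 was not recomputed without these libraries. These are descriptions over libraries that share days, depth and preparation.

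The genes most like each of the 7 were sought by that correlation among 9696 genes of at least 10 CPM in some group. For Saa3 they were Arg1 (0.959), the arginase of alternatively activated macrophages, Pla2g7 (0.937), a secreted phospholipase, and Pid1 (0.925). Arg1 was at 0.735 CPM in AM without LPS, 358 in AM day 3, 1016 in BM day 3 and 77.7 in BM day 7 on average. For Hp they were Fam20c (0.934), Mmp14 (0.931) and the class I molecule H2-K1 (0.929). For Lcn2 they were Cfb (0.938), Ly6i (0.915) and Ptges (0.904), the inducible prostaglandin E synthase. Wfdc17 had Anpep (0.891), Itgam (0.873) and Slc31a1 (0.863), with Itgam, the integrin chain CD11b, at 297 CPM in AM day 1, 16.0 in AM day 7 and 397 in BM day 7. Slpi had Baz1a (0.908), Pparg (0.866), the nuclear receptor of alveolar macrophage identity, and Fpr1 (0.861). S100a8 had Ikbke (0.931), Pla2g7 (0.898) and Cd38 (0.897), and S100a9 had Slfn4 (0.923), Ifitm1 (0.922) and Il1f9 (0.913). After removal of group means these correlations ran from −0.047 (Hp with H2-K1) to 0.772 (Slpi with Fpr1). Hp with Mmp14 was then at 0.146 and Wfdc17 with Anpep at 0.166. Where the second value is low, the likeness lies between groups and not within them.

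Other acute-phase genes followed in part. Of 24 listed genes 16 were tested, and 3 rose in AM by day 1 with none falling, where 6.28% of all genes were called. Cfb, complement factor B, rose from 2.76 to 130 CPM on average (log2 difference 5.64 ± 0.64, edgeR adjusted p = 9.8e-07). It was still higher than without LPS at day 3 (5.00 ± 0.63, adjusted p = 6.2e-06) and day 7 (2.97 ± 0.56, adjusted p = 0.0049), the last with adjusted p = 0.23 when Y-linked RNA was a covariate. C3, the central complement protein and the most abundant of the list, rose from 172 to 318 CPM to 1087 to 1523 CPM at day 1 (2.60 ± 0.35, adjusted p = 1.4e-05) and stayed higher at day 7 (2.33 ± 0.34, adjusted p = 0.00035). Ptx3, a pentraxin made by macrophages, had 0 counts in all AM libraries without LPS and 9.87 to 41.1 CPM at AM day 1 (edgeR adjusted p = 0.0092). That call ended without AM_day0.1 and without AM_day0.2 (largest adjusted p = 0.064). In BM against AM, Mt1, a metal-binding metallothionein, was lower at day 1 (−3.98 ± 0.28, adjusted p = 8.6e-11) and day 3 (−1.48 ± 0.30, adjusted p = 0.0050, or 0.18 with only those groups fitted), and C3 did not pass on any day (adjusted p from 0.67 to 1.0). No gene of the list passed between BM and AM at day 7, where the median of the list was 1.49 beside 0.03 over all genes. That median includes genes near the floor: of the 24 listed, 7 reached 1 CPM in some AM day 7 library and 11 in some BM day 7 library. Summed CPM of the list was not higher in BM, at 1764 to 1844 against 1812 to 2490 in AM. Saa2, a liver serum amyloid A gene singled out after its values were seen, had 0 counts in all 26 libraries, and Saa1 reached at most 2.13 CPM.

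Among 20 other antimicrobial secreted proteins, 17 tested, none rose in AM from day 0 to any later day, and 1 fell. Of all genes, 6.28% were called at AM day 1, 2.51% at day 3 and 0.677% at day 7. Rnase4, a secreted ribonuclease, fell by day 1 (−1.73 ± 0.33, edgeR adjusted p = 0.00094) and rose again from day 1 to day 3 (1.65 ± 0.33, adjusted p = 0.010, or 0.14 without AM_day3.2). Lyz2, the macrophage lysozyme and the most abundant gene of the list, held 15374 to 18908 CPM in AM without LPS and 25986 to 40178 CPM at day 3 (0.94 ± 0.27, adjusted p = 0.067). In BM it rose from day 1 to day 3 (1.52 ± 0.22, adjusted p = 1.8e-05) and again to day 7 (1.17 ± 0.25, adjusted p = 0.0065). The latter call ended without BM_day7.3 and with only those groups fitted (largest adjusted p = 0.19), and BM against AM at day 7 did not pass (−0.04 ± 0.25, adjusted p = 1.0). Between BM and AM at day 1, 2 genes were higher and 6 lower, where 29.0% of all genes were called. Ltf, the iron-binding lactoferrin of neutrophil granules, was higher (5.95 ± 1.86, adjusted p = 0.020, at most 0.11 where Y-linked RNA was a covariate or AM_day1.2 was left out), in the group with the highest neutrophil sums, and Chil3, a chitinase-like protein of alveolar macrophages, was lower (−4.55 ± 0.38, adjusted p = 6.4e-09). Ltf had 0 counts in all BM day 3 libraries, BM_day3.1 included. At BM day 3 Pglyrp1, a peptidoglycan-binding protein, was above AM (6.49 ± 1.41, adjusted p = 0.0089, a call held in 34 of 37 alternative fits and ended without AM_day3.1 or AM_day3.3), and Ear2 below it (−3.53 ± 0.47, adjusted p = 0.00015), an eosinophil-associated ribonuclease whose counts are uncertain because of its near-copy Ear1.

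The WAP-domain and protease inhibitor list had 16 of 24 genes tested. In AM by day 1, 2 rose and 1 fell, where 6.28% of all genes were called. Cstb, an inhibitor of cysteine cathepsins, rose (2.24 ± 0.29, edgeR adjusted p = 7.1e-06), the secreted inhibitor Cst3 fell (−1.69 ± 0.25, adjusted p = 5.0e-05) and Wfdc21 rose (2.32 ± 0.67, adjusted p = 0.040), the last call holding in 20 of 36 alternative fits. Wfdc21 shared with Wfdc17 a lower level in BM than in AM at day 1, of −5.97 ± 0.65 (adjusted p = 3.2e-07), and rose in BM from day 1 to day 3 (3.42 ± 0.58, adjusted p = 0.00023). At day 7 it held 20.6 to 163 CPM in BM and 143 to 173 CPM in AM, and no gene of the list passed between the cell types.

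Among receptors and binding partners, 17 of 20 were tested, and 1 rose in AM by day 1, where 6.28% of all genes were called. Fpr2, a formyl peptide receptor that also binds serum amyloid A, rose by day 1 (1.63 ± 0.47, edgeR adjusted p = 0.039), a call that held in 24 of 36 alternative fits. Grn, the progranulin gene, whose product Slpi shields from elastase, rose by day 3 (1.02 ± 0.18, adjusted p = 0.00078). Anxa2 and Plscr1 encode membrane-associated proteins, of which Plscr1 binds Slpi. Anxa2 was lower in BM at day 1 (−2.74 ± 0.15, adjusted p = 1.8e-12), day 3 (−1.32 ± 0.17, adjusted p = 3.5e-05, or 0.075 with only those groups fitted) and day 7 (−0.88 ± 0.17, adjusted p = 0.0024). Plscr1 was lower as well, by −3.03 ± 0.32 at day 1 (adjusted p = 4.6e-08) and −1.44 ± 0.36 at day 7 (adjusted p = 0.030, held in 30 of 37 alternative fits). The LPS co-receptor Cd14 was higher in BM at day 7 (0.96 ± 0.21, adjusted p = 0.0076). Slc22a17, a receptor of lipocalin 2, was lower in BM at day 1 (−3.68 ± 1.35, adjusted p = 0.042), a call that held in 18 of 35 alternative fits.

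All 20 inducing cytokines and transcription factors were tested. In AM 3 rose and 4 fell by day 1, where 6.28% of all genes were called. Socs3, the feedback inhibitor that STAT3 induces, rose (2.15 ± 0.27, edgeR adjusted p = 3.9e-06), as did Il1b (1.64 ± 0.26, adjusted p = 0.00011), while Cebpa, a C/EBP factor, fell (−1.57 ± 0.27, adjusted p = 0.00034). Il6, singled out after its values were seen, held 16.8 to 52.2 CPM without LPS and 175 to 286 CPM at AM day 1 but did not pass (3.11 ± 1.14, adjusted p = 0.115). At AM day 7 none was higher than without LPS and 3 were lower, among them Tnf (−2.33 ± 0.38, adjusted p = 0.0016, or 0.052 with Y-linked RNA as a covariate). Of all genes, 0.677% were called there. In BM day 1, 12 were higher and 3 lower than in AM day 1, where 29.0% of all genes were called. From day 1 to day 3 in BM 15 fell and 3 rose, where 25.9% of all genes were called. Il1b fell by 2.64 ± 0.24 (edgeR adjusted p = 1.8e-08) and Nfkbiz, an NF-kB cofactor, fell by 3.04 ± 0.27 (adjusted p = 1.6e-08). Between the same days the mean of Saa3 went from 447 CPM, or 256 without BM_day1.4, to 5068 CPM, and that of Hp from 229 to 1356. Any link between these changes was not tested, and BM day 1 carries a name prefix of its own. At day 7 Socs3 (2.52 ± 0.25, adjusted p = 4.1e-07) and Nfkbiz (1.64 ± 0.28, adjusted p = 0.00057) were higher in BM than in AM, and no other gene of the list passed. Both calls held in all 37 alternative fits.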

How the data were processed

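RNA-seq read counts per Ensembl gene in 26 libraries were analysed. Per the submitters' processing notes, reads were handled on build GRCm38 with HISAT2 2.1.0 and featureCounts 2.0.0, besides Trimmomatic 0.39 and FastQC 0.11.9. Settings, annotation release and strand use in counting are not given in the sources used here. Per the labels' protocols the libraries are stranded and made from poly(A) RNA. The deposited values are raw counts, tested as deposited. GENCODE M21 named 55227 of 55487 IDs. The 7 genes share no exon base with another gene, except that Slpi shares 1 with Mir7678.

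CPM is the count divided by a library's total, scaled by 1000000. One edgeR 4.0.16 model in R 4.3.3 held all groups: TMM, filterByExpr with a minimum count of 10, robust quasi-likelihood F test, 1 coefficient a group, Benjamini-Hochberg over 17143 genes in each of 11 comparisons. The SE of a fitted log2 difference was derived from that test, as its absolute value divided by the square root of F. The 7 genes and all lists were chosen with earlier results of these data known. Related genes were eligible for naming by rule: in each list and comparison the 3 largest changes among called genes whose groups do not overlap and whose higher mean reaches 5 CPM, and the most abundant gene. Not all eligible genes are named. Likeness leaves out gene models and pseudogenes. The procedure was tested on simulated counts. Alternatives were DESeq2 1.42.0, its size factors in edgeR, library size alone, no filter, a stricter filter (5 CPM in 3 libraries), the compared groups alone, the shared prefix alone, a replicate block, Y-linked RNA as a covariate, a pseudocount of 0.1, leaving out each library, and leaving out BM_day1.3 with BM_day3.1. The ranges of library numbers and a block by the number inside the library name were chosen after seeing the data.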

Additional observations from a re-analysis of the deposited data

Results flagged for a closer look

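In groups of 4 or 5 libraries, a library was singled out where its gap to the nearest other library took up more of the group's range than Dixon's 95% critical value, which chance passes in about 1 in 20 groups. Here 8 of 56 groups did so. The groups of 3 libraries, AM day 0, AM day 3 and BM day 7, were not examined, so BM_day7.3 could not be singled out. Among the 7 genes this held for Saa3 in BM_day1.4 (1211 CPM against 142 to 376 in the other BM day 1 libraries) and, in BM_day3.1, for S100a8 (1021 CPM against 86.7 to 148) and S100a9 (1331 CPM against 16.6 to 100.4). BM_day3.1 was also apart in the neutrophil marker sum (2379 CPM against 405 to 564) and in the fibroblast and endothelial sum (29309 CPM against 91.1 to 388). AM_day7.2 had a fibroblast and endothelial sum of 446 CPM against 7.44 to 25.4, with no such gap in the 7 genes. The eosinophil and dendritic cell sum was 41.0 CPM in AM_day1.3 against 12.96 to 15.5, and 125 CPM in BM_day1.2 against 57.8 to 77.1.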

How the results depend on the processing

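Counts of related genes called were 15, 9 and 6 for AM days 1, 3 and 7 against AM day 0, 5 for AM day 3 against day 1, 5 for AM day 7 against day 3, 43 for BM day 3 against day 1, 14 for BM day 7 against day 3, 41, 16 and 6 for BM against AM on days 1, 3 and 7, and 7 for BM day 7 against AM day 0. Of all 17143 genes, in that order, 6.28, 2.51, 0.677, 0.834, 1.59, 25.9, 3.98, 29.0, 3.98, 1.77 and 2.16% were called. With only the compared groups fitted the counts of related genes were, in that order, 26, 29, 30, 11, 29, 28, 1, 39, 1, 22 and 23. DESeq2's Wald test gave 21, 18, 10, 15, 8, 44, 24, 43, 23, 13 and 10. Leaving out BM_day1.3 and BM_day3.1 gave 28, 18, 9, 11, 8, 41, 16, 48, 16, 11 and 13. Y-linked RNA as a covariate gave 2 for AM day 7 against day 0, 2 for AM day 7 against day 3 and 8 for BM against AM at day 3, which was also 8 with no filter. The shared prefix alone gave 8 for AM day 3 against day 1, as did a replicate block by the number inside the library name. Leaving out each library gave ranges of 10 to 20, 7 to 14, 4 to 8, 3 to 8, 2 to 8, 38 to 42, 6 to 18, 35 to 46, 6 to 16, 4 to 9 and 5 to 9, and the cause of these shifts was not tested. With a replicate block the 11 counts lay within 1.5 times of those without it, at 17 for AM day 1 against day 0 and 36 for BM day 3 against day 1. Same-numbered libraries correlated by −0.115 to 0.0895 after group means, and 2 of 25 correlated best with their own number, so the title numbers were not taken to pair them. The numbers inside the library names differ from these in AM day 3, BM day 1 and BM day 7. A block by them, added after seeing the data, leaves out BM day 1, whose numbers no other group has. AM and BM libraries of 1 day with the same such number correlated by −0.0226 to 0.00976 (6 pairs). For the 7 genes, 43 of 2793 alternative differences moved by over 1 SD. No difference that was called changed sign, but 13 that were not called did under at least 1 alternative (34 values), such as S100a9 at AM day 7 against day 0, from 2.00 to −1.79 with Y-linked RNA as a covariate, and S100a8 at BM day 3 against day 1, from 0.73 to −0.70 without BM_day3.1. The replicate block by title numbers called 1 of the 7 genes in place of 2 for AM day 3 against day 1, and both blocks called 3 in place of 5 for BM day 7 against day 3. Without the filter these counts were 1 and 3, and 0 in place of 1 for BM against AM at day 3.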
